A study of Neurospora crassa OR74A with 12 samples.

Results

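The H2O2 response of Neurospora crassa mycelia that lack UPF-1 was read from 6 of the 12 RNA-seq libraries of the study, the 3 libraries of the upf-1KO strain given 20 mM H2O2 and the 3 libraries of untreated upf-1KO. They were chosen by the genotype and the treatment in their labels. N. crassa is a filamentous fungus, and each group came from 3 independent pools of mycelial disks grown in shaken minimal medium under constant light. In upf-1KO the upf-1 gene had been replaced with a hygromycin resistance cassette in a host whose ku70 gene carried stop codons from repeat-induced point mutation. Both groups therefore share the loss of upf-1, the ku70 background and the bd mutation in ras-1. The WT strain has the bd mutation as well, but no ku70 mutation is given for it. The labels name OR74A as the strain of each sample. The time for which H2O2 was applied to these cultures is not given in the sources used here. The WT libraries, 3 untreated and 3 with 20 mM H2O2, entered the fit and were used for a test of the difference between the strains.

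UPF-1 is an RNA helicase at the centre of nonsense-mediated mRNA decay (NMD), which removes transcripts on which translation ends early and also many normal transcripts with upstream reading frames or long 3′ untranslated regions. Fungal cells remove H2O2 with catalases, peroxidases and the thioredoxin and glutathione systems, and conjugate damaged molecules to glutathione. H2O2 also damages proteins and DNA, which are handled by chaperones, by the proteasome and by DNA repair enzymes.

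The 6 libraries held 6727198 to 7474127 gene reads each. The upf-1 locus (chromosome V, 5327537 to 5332820 of the NC12 genome; its symbol in RefSeq is prd-6) had 232 to 236 reads in the untreated upf-1KO libraries and 374, 257 and 375 with H2O2, against 622 to 748 in the untreated WT libraries. The locus was thus not empty in upf-1KO, and the position of these reads along the gene was not analysed here. The ku70 gene, listed as mus-51, had 0 reads in each untreated upf-1KO library, 4, 0 and 3 with H2O2, and 188 to 220 in the untreated WT libraries. The RNA of the treated libraries was distributed over genes in another way than that of the untreated ones: the TMM scaling factors were 1.49 to 1.53 without H2O2 and 0.80, 1.12 and 0.84 with it. Ribosomal RNA took 0.70% to 0.75% of the reads without H2O2 and 3.52%, 2.21% and 0.47% with it. Among the conidiation markers con-8, con-10 and con-13 the highest value in the 6 libraries was 29.7 normalized counts (read counts rescaled to a common library size with the TMM factors), and the mycelial catalase gene cat-3 had 2931 to 3026 in the untreated libraries. Other conidiation and aerial hypha markers, such as eas, were abundant. The 22 markers of that list summed to 108287 to 114288 normalized counts per untreated library, so that the markers did not all point the same way.

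Replicate 2 with H2O2 lay apart from the other libraries of its group. Across genes, Spearman's correlation between treated replicates 1 and 3 was 0.990, while replicate 2 had 0.927 with replicate 1 and 0.923 with replicate 3. The untreated libraries correlated at 0.995 with each other. On the first principal component of the 12 libraries, which held 56.8% of the variance, treated replicates 1 and 3 lay at 53.8 and 58.3, the untreated libraries between -54.0 and -52.5, and replicate 2 at 5.14. On the third component replicate 2 lay at 60.2 and the other 2 treated libraries at -19.5 and -20.2. A WT library with H2O2, replicate 1, also lay apart from its group on that component, at 25.9 against -8.52 and -10.5. The counts of called genes are therefore given for all 6 libraries and again without replicate 2, a fit in which the treated group has only 2 libraries. For many single genes whose change differed by more than 1.5-fold between the fits, the value without replicate 2 is given. For some others only the counts of the libraries are given, so that a missing value does not mean that the fits were equal.

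**Figure D1:**
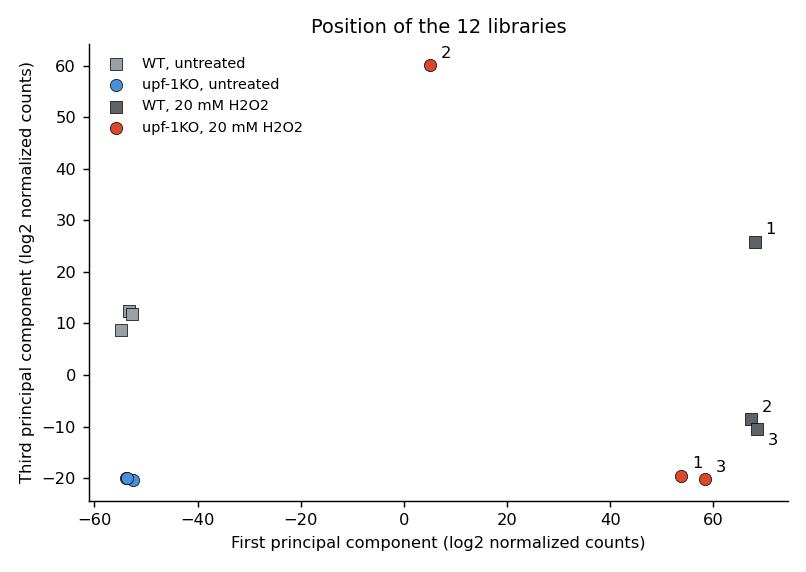
Position of the 12 libraries on the first (x axis) and the third (y axis) principal component of log2 normalized counts, with circles for upf-1KO, squares for the WT strain, and the replicate number beside each library with H2O2. Treated upf-1KO replicates 1 and 3 lie together at 53.8 and 58.3 on the x axis, and replicate 2 lies at 5.14 on the x axis and 60.2 on the y axis.

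Genes were called higher or lower where the level changed 2-fold or more and the Benjamini-Hochberg adjusted p-value of edgeR's quasi-likelihood test was under 0.05. Of 7878 genes tested, 1369 were higher (17.4% of those tested) and 1197 were lower (15.2%) with H2O2. Without replicate 2, 1465 of 7961 genes were higher (18.4%) and 1852 were lower (23.3%). The numbers called in the gene lists below are to be read beside these shares. The calls in common were 1203 higher genes, which are 87.9% of the calls from 6 libraries and 82.1% of the calls without replicate 2, and 1114 lower genes, which are 93.1% and 60.2% of the respective lists. The direction of a moderate change depends on the scaling. Over all genes the median log2 change was 0.08 with TMM factors and -0.64 with library totals alone, and the totals gave 428 higher and 2581 lower genes. All changes below are on the TMM scale. The change also followed gene length, with a median log2 fold change of 0.79 in genes of 105 to 1439 bases and -0.60 in genes of 3348 to 33355 bases. The mean length of a gene weighted by its reads was 2521 to 2550 bases in the untreated libraries and 2145, 2376 and 2112 bases with H2O2. Whether length or RNA quality had a part in single changes was not tested beyond the alternative that removes the length trend.

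Most genes rose in a list of antioxidant and glutathione S-transferase genes, labelled here as H2O2-scavenging enzymes. The list held genes of glutathione S-transferases, the thioredoxin system, superoxide dismutases and catalases, and not all of these enzymes remove H2O2 themselves. The catalases break down H2O2 directly, and their genes, given below, did not move as one. The counts of this list are thus no measure of H2O2 removal. Of 12 genes, all tested, 10 were higher and 0 were lower, with a median log2 fold change of 1.85 against 0.08 for all genes. Without replicate 2, 9 were higher and the median was 1.47. On library totals 5 were higher and 1 was lower, and 7 were higher without treated replicate 1 or without treated replicate 3.

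The glutathione S-transferase genes, whose enzymes join glutathione to reactive compounds, changed most. gst-1 (chromosome VII, 3803145 to 3804267) had 147, 156 and 172 normalized counts in the untreated libraries and 5151, 6699.8 and 6352 with H2O2. The groups were far apart and replicate 2 was the highest treated library, and the log2 fold change was 5.26 (SE 0.45, adjusted p = 1.06e-05) with it and 5.18 without it. gst-2 (chromosome V, 4869929 to 4871716) rose from 412, 443 and 438 to 12502, 10407 and 15135 normalized counts (log2 fold change 4.88, SE 0.43). gst-3 and gst-4 rose by 4.61 and 4.45 on the log2 scale, and each overlaps another annotated gene (NCU01319 and NCU06938), so that reads of the pair cannot be told apart where the strand setting of the counting is not known. Replicate 2 was the lowest treated library for gst-2, gst-3 and gst-4, yet stayed far above the untreated libraries for each of these genes.

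Both genes of the thioredoxin system in the list were higher. cys-9, the thioredoxin reductase gene, had 432, 445 and 409 normalized counts without H2O2 and 4432, 3873 and 4355 with it (log2 fold change 3.30, SE 0.15, adjusted p = 4.07e-07 from edgeR). The treated libraries lay close together here, replicate 2 included. trx, for thioredoxin, went from 300.4, 319 and 278 to 690.1, 435 and 736 normalized counts (log2 fold change 1.05). sod-1 and sod-2, the copper-zinc and the manganese superoxide dismutase, had log2 fold changes of 1.05 and 1.01. For sod-1 the 2296 normalized counts of replicate 2 fell within the untreated range of 2129 to 2460.1, while the treated replicates 1 and 3 had 5984 and 6204.

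The 4 catalase genes did not move as one. cat-1, for the large catalase that is abundant in conidia, had 1375, 1231 and 1239 normalized counts without H2O2 and 3882, 3037 and 3672 with it (log2 fold change 1.46, SE 0.34, adjusted p = 0.00395 from edgeR). All treated libraries lay above all untreated ones, and without replicate 2 the change was 1.56. cat-2, for the catalase-peroxidase, had 350.4, 304 and 291 and 579.9, 3326 and 561 normalized counts. Its call rested on replicate 2, because the log2 fold change of 2.24 (adjusted p = 0.017) became 0.86 (adjusted p = 0.0918) without that library. cat-3, for the main catalase of growing mycelium, had 3026, 2939 and 2931 normalized counts without H2O2 and 2339, 3033 and 1922 with it, so that the groups overlapped. Its log2 fold change was -0.29 (SE 0.17, adjusted p = 0.172) and, without replicate 2, -0.48 (SE 0.13, adjusted p = 0.00528). cat-4, a catalase of the small kind, had 435, 469 and 417 and 317, 161 and 248 normalized counts, all treated values lying below the untreated ones, and a log2 fold change of -0.86 that did not pass (adjusted p = 0.0512).

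**Figure D2:**
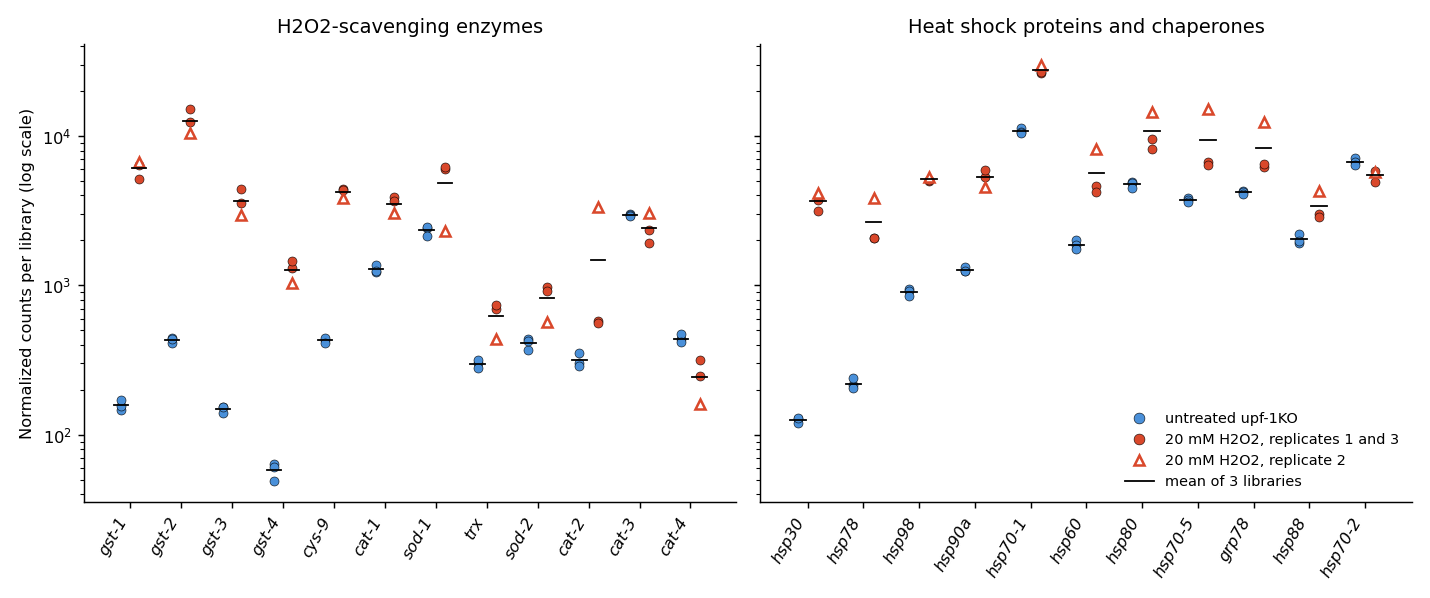
Normalized counts in each upf-1KO library (y axis, log scale) for the 12 genes of the list labelled H2O2-scavenging enzymes and 11 chaperone genes (x axis), with blue circles for untreated libraries, red circles for treated replicates 1 and 3, open triangles for treated replicate 2 and bars for the mean of 3 libraries. The treated libraries of gst-1 to gst-4, cys-9, hsp30 and hsp98 lie together far above the untreated ones, and replicate 2 lies apart for sod-1, cat-2, hsp70-5 and grp78.

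Most chaperone genes rose, and replicate 2 had the highest level of most of them. Of 11 genes, 8 were higher and 0 were lower (median log2 fold change 1.36), and 6 were higher without replicate 2 (median 1.24). On library totals 4 were higher and the median was 0.71. hsp30, for the small heat shock protein, had 127, 120.5 and 129.6 normalized counts without H2O2 and 3141, 4127 and 3704 with it (log2 fold change 4.86, SE 0.46, adjusted p = 1.57e-05 from edgeR), and overlaps NCU10352. hsp78 and hsp98, disaggregases of the ClpB family, rose by 3.60 and 2.50 on the log2 scale. hsp98 was nearly equal in the treated libraries, at 4968, 5349.7 and 5077 normalized counts against 855 to 943 without H2O2. hsp70-1, for the abundant cytosolic Hsp70, rose from 11376, 10619.9 and 10481 to 26352, 30001 and 26977 normalized counts. hsp60, the mitochondrial chaperonin gene, had 4635 and 4240.2 normalized counts in treated replicates 1 and 3, 8216 in replicate 2 and 1757 to 2002 without H2O2. Replicate 2 was above both other treated libraries for 9 of the 11 genes, against 45.3% of all genes tested. hsp80 (the Hsp90 gene) and hsp70-5 were called in 6 libraries (log2 fold changes 1.17 and 1.33) and fell under the fold threshold without replicate 2 (0.89 and 0.81). grp78, for the Hsp70 of the endoplasmic reticulum, had 4117 to 4298 normalized counts without H2O2, 6233 and 6519.5 in treated replicates 1 and 3 and 12364 in replicate 2. hsp70-2 had a log2 fold change of -0.29 (adjusted p = 0.22). The heat shock factor genes themselves were lower: hsf-1 had 438, 419 and 405 normalized counts without H2O2 and 86.6, 137 and 54.6 with it (log2 fold change -2.17), with overlaps to 2 annotated genes, and hsf-2 had 369.9, 336 and 335 and 156, 168 and 161 (log2 fold change -1.10).

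Many proteasome genes rose, most of them by about 2-fold. Of 30 genes, 14 were higher and 0 lower, 25 passed the adjusted p with an increase of any size (26.0% of all genes did), and the log2 fold changes ran from -0.18 to 3.16 with a median of 0.99. Without replicate 2, 11 were higher (median 0.94). The 2-fold threshold lies close to the median, so that the number of calls moved with the libraries used, to 10 without treated replicate 1 and 7 without treated replicate 3, and on library totals 1 was higher and the median was 0.29, or 0 higher and 2 lower with a median of 0.06 without replicate 2. pca-1 and pca-6, subunits of the alpha ring of the core particle, had 1331, 1410.0 and 1269 and 1157, 1245 and 1159 normalized counts without H2O2. With H2O2 they had 3063, 2659 and 3244 and 3328, 2627 and 3577 (log2 fold changes 1.16 and 1.42, SE 0.13 and 0.17), and pca-6 overlaps 2 other genes. rpt-5, an ATPase of the regulatory particle, rose by 1.44 (SE 0.13). The largest increase of the list was that of rpn-4, whose counterpart in Saccharomyces cerevisiae is the transcription factor of proteasome genes. It had 267, 236 and 280.3 normalized counts without H2O2 and 1186, 4950.0 and 845 with it, so that replicate 2 was more than 4-fold above the other treated libraries, and its log2 fold change was 3.16 (SE 0.84) with replicate 2 and 1.96 (SE 0.69, adjusted p = 0.0245 from edgeR) without it.

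The largest increases among genes of at least 100 normalized counts that were called with and without replicate 2 were in genes without a name. NCU16494 (chromosome I, 9423601 to 9424338) had 0, 1 and 0 reads without H2O2 and 182, 1015 and 242 reads with it. Set against a floor of 3 reads per untreated library, it was at least 243-fold higher over 3 treated libraries and at least 129-fold higher without replicate 2. NCU06782 (chromosome II, 1950962 to 1952648) had 26.4, 23.6 and 26.5 normalized counts without H2O2 and 3409.7, 4081 and 3603 with it (log2 fold change 7.17, SE 0.47, adjusted p = 3.46e-06 from edgeR), and replicate 2 was close to the other 2 treated libraries. NCU05751, NCU07441, NCU08900 and NCU17018 rose by 6.05, 6.02, 5.89 and 5.09 on the log2 scale. Without H2O2, NCU05751 had 7, 9 and 11 reads and NCU07441 had 4, 5 and 7, so that the size of their increases (SE 0.44 and 0.66) is uncertain. The named genes beside the glutathione S-transferases and hsp30 were 5 genes with mig symbols. mig-8 (chromosome II, 942066 to 943607) had 138, 156 and 119 normalized counts without H2O2 and 7145, 10086 and 8891 with it, and mig-3 (chromosome IV, 3311170 to 3312789) had 666, 722 and 617 and 13442, 16454 and 15437. mig-8, mig-3, mig-4, mig-2 and mig-5 rose by 5.98, 4.50, 4.22, 3.96 and 3.82, and in none of them did replicate 2 lie as much as 2-fold from both other treated libraries. mig-2 overlaps NCU07453.

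The largest decreases by the same rule were in ada-1 and hak-1 among the named genes. ada-1 (chromosome I, 8217078 to 8220083), a transcription factor gene named for the altered development of its mutant, had 2381, 2264 and 2384 normalized counts without H2O2 and 52.5, 213 and 46.8 with it (log2 fold change -4.47, SE 0.49, and -5.56 without replicate 2), and overlaps NCU16460. hak-1 (chromosome I, 7160898 to 7164346), for a high-affinity potassium transporter, had 414, 437 and 364 and 13.1, 25.8 and 11.7 normalized counts (log2 fold change -4.55, SE 0.39, adjusted p = 1.06e-05 from edgeR). Replicate 2 was the highest treated library in both genes and lay far below the untreated libraries. NCU16405, which overlaps NCU08332, fell from 1155, 1200.3 and 1062 to 23.6, 55.6 and 19.5 normalized counts (log2 fold change -5.08, and -5.72 without replicate 2). In other genes the decrease was mainly in replicates 1 and 3: NCU07543 had 189, 201 and 209.7 normalized counts without H2O2, 5.25 and 10.4 in these 2 libraries and 132 in replicate 2. Its log2 fold change was -1.98 over 6 libraries and -4.65 without replicate 2. NCU05635, NCU01466, NCU04287 and NCU06759 had log2 fold changes of -3.15, -2.59, -2.19 and -3.64 over 6 libraries and of -5.34, -4.12, -4.03 and -4.01 without replicate 2, and the first and the last of these overlap other genes. Other named genes of this group were fr (-2.82, with an overlap to NCU07482), the dynactin gene ro-3 (-2.60), the sirtuin gene nst-4 (-2.27), the kinase gene stk-19 (-2.63), the chromatin remodelling gene crf4-2 (-2.78), os-4 (-2.56) and nit-3 (-2.08), each value being the log2 fold change over 6 libraries. Without replicate 2 the log2 fold change was -3.85 for nst-4, -3.36 for stk-19 and -3.13 for nit-3, and replicate 2 was the highest treated library for each of them, with 24.9, 152 and 19.5 normalized counts of nst-4 in the treated libraries.

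Nitrogen assimilation genes were lower in part. Of 13 genes, 5 were lower and 1 was higher (median log2 fold change -0.67), against 15.2% and 17.4% of all genes tested. Without replicate 2 the numbers were 7 and 2 (median -1.01), against 23.3% and 18.4% of all genes. With the length trend removed 3 were lower and 1 was higher (median -0.34). Nitrate reductase (nit-3, chromosome IV, 5420216 to 5423422) had 1029, 1058 and 1085 normalized counts without H2O2 and 112, 501 and 129.9 with it, and nitrite reductase (nit-6) had 10590.4, 10860.2 and 11255 and 3424, 3127 and 3034. The log2 fold changes were -2.08 (SE 0.44, and -3.13 without replicate 2) and -1.77 (SE 0.16). The regulators of both enzymes were lower as well, with log2 fold changes of -2.25 for the nitrate-specific factor nit-4 and -1.21 for the GATA factor nit-2. alc-1, the allantoicase gene, was the gene called higher in 6 libraries (1.05), and replicate 2 lay at 1257 normalized counts against 1167 to 1249 without H2O2 and 3199 and 3106 in the other treated libraries.

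Among 15 sugar and ion transporter genes 4 were higher and 5 were lower, and 3 and 6 without replicate 2 (median -0.62, and 0.04 with the length trend removed). The shares of all genes tested were 17.4% higher and 15.2% lower, and 18.4% and 23.3% without replicate 2. Beside hak-1, the lower genes were the cellodextrin transporter genes cdt-1 and cdt-2, the calcium pump gene nca-2 and the calcium exchanger gene cax. nca-2 was even over the libraries, at 2129, 1895 and 2017 normalized counts without H2O2 and 934, 999 and 958 with it (log2 fold change -1.06, SE 0.14). ena-1, for a sodium pump, rose from 482, 509 and 487 to 1755, 1327 and 1623 normalized counts (log2 fold change 1.67, SE 0.14, adjusted p = 9.16e-06 from edgeR). The phosphate permease gene pho-4 rose from 28.5, 19.8 and 37.3 to 85.3, 319 and 78.0 normalized counts, replicate 2 being the highest library, with a log2 fold change of 2.49 that became 1.503 without it. pho-5, also for a phosphate permease, rose from 10.4, 13 and 8.15 to 73.5, 52.6 and 48.1 (log2 fold change 2.45). The increase of hgt-1, for a high-affinity glucose transporter, was in replicate 2 alone, with 241 normalized counts there, 6.56 and 13 in the other treated libraries and 6.86 to 7.65 without H2O2. Its log2 fold change was 3.57 over 6 libraries and 0.41 without replicate 2.

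Of 17 genes for stress MAP kinase pathways and stress transcription factors, 0 were higher and 4 were lower (median log2 fold change -0.42), and 6 were lower without replicate 2. The 4 lower genes are 23.5% of the list, against 15.2% of all genes tested, a share that was 23.3% without replicate 2. Once the trend with gene length was removed, 1 gene of the list was higher, 2 were lower and the median was 0.27. os-4, the upper kinase of the osmotic stress pathway, had 486, 406 and 424 normalized counts without H2O2 and 53.8, 113 and 54.6 with it (log2 fold change -2.56, SE 0.27). rrg-1, its response regulator, had 894, 809 and 884 and 282, 375 and 403 (-1.29, SE 0.16). The MAP kinase os-2 itself had a log2 fold change of -0.30 (SE 0.15, adjusted p = 0.124 from edgeR) and the sensor kinase os-1 one of -0.49 (SE 0.14). The remaining lower genes were hsf-1 and hsf-2.

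Genes of translation and of energy metabolism had higher levels in treated replicates 1 and 3 than in replicate 2. Of 9 cytosolic ribosomal protein genes 8 were higher (median log2 fold change 1.36), and 8 without replicate 2 (median 1.67). crp-5 had 8459, 9094 and 8613 normalized counts without H2O2, 39047 and 41417 in treated replicates 1 and 3 and 14088 in replicate 2. cyh-2 had 9887, 9969 and 9874, 43606 and 41477 and 16049 in the same order. Replicate 2 was below both other treated libraries in all 9 genes and more than 2-fold below in 8, and 5 were called without treated replicate 1. Among all genes tested replicate 2 was below both in 44.4%. On library totals 2 were higher. The same arrangement held for the subunits of respiratory complex I, where replicate 2 was below both others in 28 of 29 genes, against the same 44.4%. Of the 29 genes, 8 were higher in 6 libraries (median 0.44), which is 27.6% against 17.4% of all genes tested. Without replicate 2, 12 were higher (median 0.61), but 1 without treated replicate 1 or without treated replicate 3. On library totals 0 were higher, 2 were lower and the median was -0.31. With the length trend removed the median was -0.03. For nuo40 the values were 2321, 2416 and 2351 normalized counts without H2O2, 5914 and 5966 in treated replicates 1 and 3 and 2485 in replicate 2. Among 11 genes of complexes III and IV, cytochrome c and ATP synthase, 4 were higher, and 7 without replicate 2 but 1 without either other treated library. The median of this list was -0.04 on library totals. cyc-1, for cytochrome c, changed most, with 2129, 2335 and 2364, 10995 and 12923 and 4530.4 normalized counts in the same order (log2 fold change 2.06, SE 0.35).

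Of 9 genes of glycolysis and ethanol fermentation 4 were higher and 0 lower (median 0.99), and 7 without replicate 2 (median 1.18), with 2 left without treated replicate 1. The aldolase gene fba rose from 12305, 11487 and 11049 to 51349, 21424 and 50007 normalized counts (log2 fold change 1.82, SE 0.29). Of 17 genes of the tricarboxylic acid cycle 1 was higher and 0 were lower, and 3 and 0 without replicate 2. Of 51 genes of amino acid biosynthesis 5 were higher and 1 was lower, and 9 and 2 without replicate 2. In 6 libraries the tricarboxylic acid cycle and amino acid lists held smaller shares of calls than all genes tested (17.4% higher and 15.2% lower). The medians of both lists, 0.32 and 0.19, turned negative on library totals (-0.43 and -0.54). asn-2, for asparagine synthetase, rose by 1.71 (SE 0.28), from 68.1, 83.9 and 88.9 to 261, 176 and 355 normalized counts. met-8, among the most abundant transcripts of that list, had 43377, 38028 and 37036 normalized counts without H2O2, 51641 and 55617 in treated replicates 1 and 3 and 18998 in replicate 2.

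Of the 56 loci on the mitochondrial genome 15 passed the filter on low counts, and 18 without replicate 2. They were rare in these libraries and passed the filter mainly through the treated groups, where they are more abundant, so that the number called among them is no result. Mitochondrial loci took 0.0026% to 0.0032% of the reads without H2O2 and 0.0221%, 0.0160% and 0.0178% with it. NCU16028 had 22.2, 35.1 and 31.9 normalized counts without H2O2 and 681, 347 and 590.0 with it (log2 fold change 4.18, SE 0.30). More mitochondrial RNA per cell and a different capture of these transcripts cannot be told apart in such libraries.

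**Figure D3:**
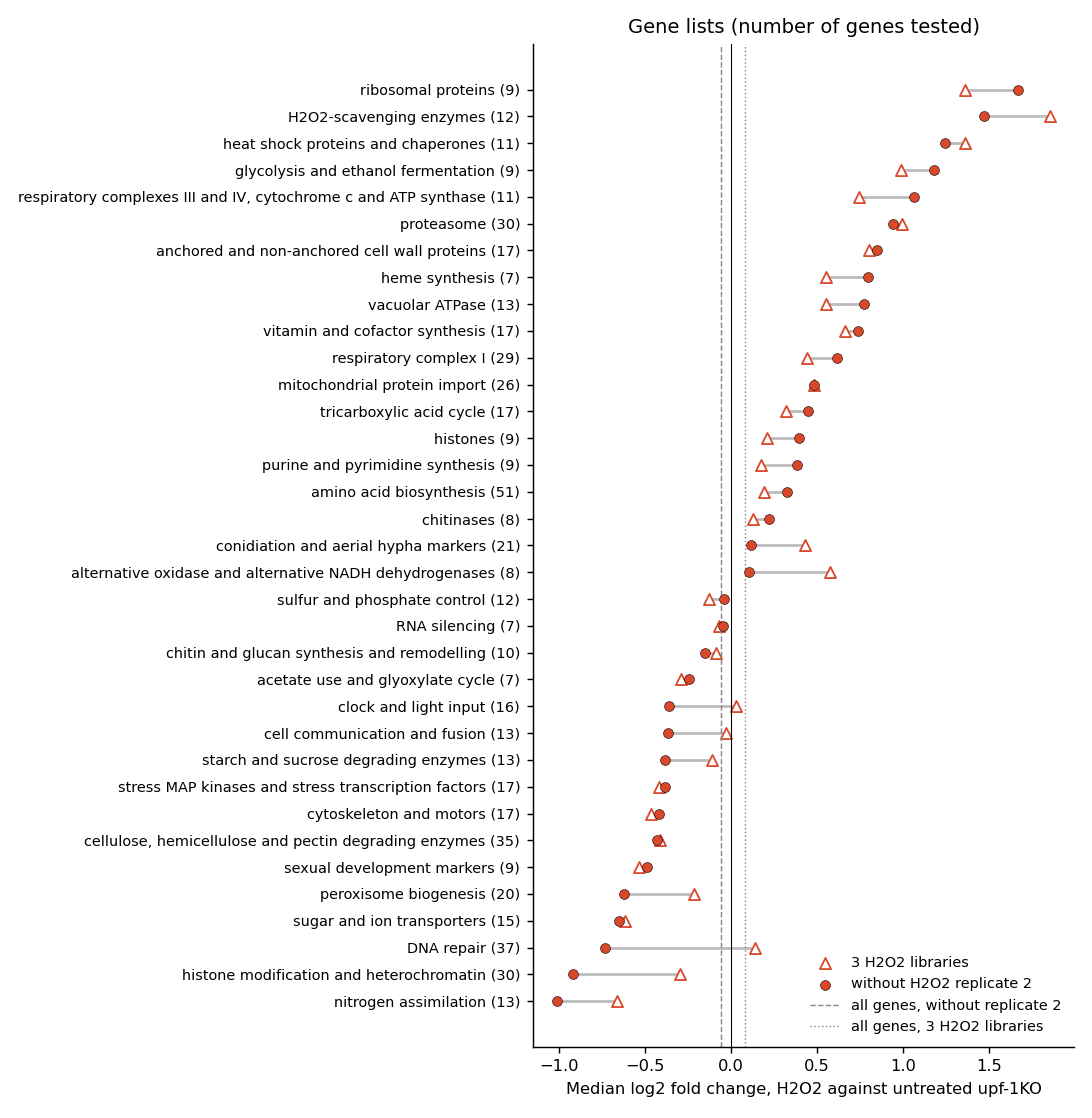
Median log2 fold change with H2O2 in upf-1KO (x axis) for each nuclear gene list with at least 7 genes tested (y axis, number of genes in brackets), over 3 treated libraries (open triangles) and without treated replicate 2 (filled circles). The dotted and dashed lines are the medians of all genes, 0.08 and -0.06, and the DNA repair list moves from 0.14 to -0.73 when replicate 2 is left out.

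DNA repair genes split the treated libraries. Of 38 genes 37 were tested, and 7 were higher and 6 were lower in 6 libraries (median log2 fold change 0.14, and -0.46 on library totals). These are 18.9% and 16.2%, near the 17.4% and 15.2% of all genes tested. Without replicate 2, 5 were higher and 17 lower (median -0.73), against 18.4% and 23.3% of all genes. With the length trend removed 11 were higher and 5 lower over 6 libraries (median 0.44). Replicate 2 was above both other treated libraries in 32 of the 37 genes, against 45.3% of all genes tested, and at least 2-fold above in 26. In 19 of the 37 genes replicate 2 lay above all untreated libraries while replicates 1 and 3 lay below all of them, which was so for 915 of all 7878 genes. The corresponding number was 55 for treated replicate 1 and 43 for treated replicate 3.

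mus-8, for the ubiquitin-conjugating enzyme of post-replication repair, rose in all treated libraries, from 464, 469.8 and 425 to 2489, 4533 and 2772 normalized counts (log2 fold change 2.85, SE 0.31). mus-18, for the UV damage endonuclease, had 57.7 to 73.2 normalized counts without H2O2 and 144, 480.1 and 136 with it. rad16 was called in 6 libraries but rested on replicate 2, with 1319 normalized counts against 68.2 and 85.8 in the other treated libraries and 56.3 to 68.6 without H2O2.

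Other repair genes moved in opposite ways in the treated libraries. mus-40 had 142, 167 and 164 normalized counts without H2O2, 6.56 and 6.50 in treated replicates 1 and 3 and 352 in replicate 2, so that its log2 fold change was -0.35 (SE 0.98) in 6 libraries and -4.57 (SE 0.29) without replicate 2. The mismatch repair gene msh3 had 93.8 to 98.7 normalized counts without H2O2, 14.4 and 5.20 and then 230.1 in the same order, and mus-53, for DNA ligase IV, had 64.0 to 86.2, 9.18 and 7.80 and 232. The excision repair gene mus-38 fell in all treated libraries, from 216, 222 and 229 to 77.4, 77.4 and 53.3 normalized counts (log2 fold change -1.68, SE 0.20). The largest fitted increase of the list, that of mus-51, came from 4, 0 and 3 reads and is no measure of size.

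**Figure D4:**
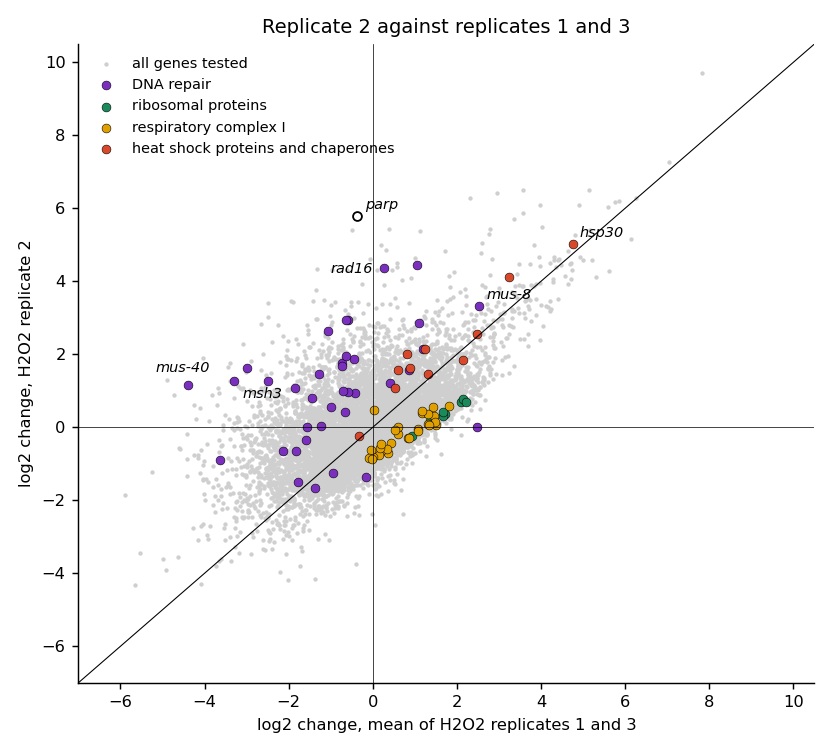
Log2 change from the mean of the untreated libraries in treated replicate 2 (y axis) against the mean of treated replicates 1 and 3 (x axis), on log2 of normalized counts plus 1, for all genes tested (grey) and 4 gene lists (colours), with equal change on the diagonal line. DNA repair genes (purple) lie mostly above the line, parp is drawn as an open circle, and ribosomal protein genes and all but 1 of the 29 complex I genes lie below the line.

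Over all genes, treated replicate 2 was at least 2-fold above both other treated libraries in 1505 genes and at least 2-fold below them in 625, against 39 and 111 for replicate 1 and 45 and 136 for replicate 3. For the 1465 genes called higher from replicates 1 and 3 alone, replicate 2 had changed in the same direction in 94.3%, with a median log2 change of 0.96 against 1.54 in the other treated libraries. For the 1852 genes called lower from replicates 1 and 3, it had changed in the same direction in 74.7% and was at least 2-fold higher than the untreated mean in 8.21%. Among the 1505 genes that replicate 2 had at least 2-fold above its group, WT replicate 1 with H2O2 was above both other treated WT libraries in 57.0%, against 39.6% of all genes, and among the 625 genes in the other direction it was below both in 75.8%, against 44.0% of all genes. rpn-4 was such a gene, with 3027, 385 and 345 normalized counts in the treated WT libraries.

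Among genes with a symbol and a mean of at least 100 normalized counts, those in which replicate 2 stood farthest above its group were parp, mus-40, gpr-5 and stk-27. parp (chromosome V, 132681 to 135523), for the poly(ADP-ribose) polymerase that is activated by DNA breaks, had 25.0, 40.4 and 37.3 normalized counts without H2O2, 22.3 and 29.9 in treated replicates 1 and 3 and 1903 in replicate 2. Its log2 fold change of 4.25 (SE 1.34, adjusted p = 0.0207 from edgeR) became -0.39 without replicate 2 (adjusted p = 0.52), and the WT libraries with H2O2 had 39.1, 2.73 and 11.1 normalized counts. gpr-5, a G protein-coupled receptor gene, and stk-27, a kinase gene, had 1303 and 1318 normalized counts in replicate 2, 38 and 23.4 and 70.8 and 70.2 in replicates 1 and 3, and 109 to 127 and 179 to 225 without H2O2, and gpr-5 overlaps NCU00299. These values show changes that replicate 2 did not share with its group, and not a response of the group. Farthest below its group by the same rule, replicate 2 had met-8, crp-5 and the glycosidase genes gh2-3 and gh47-6, the last with 321, 272 and 308 normalized counts without H2O2 and 91.8, 29.8 and 89.7 with it.

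The calls among chromatin and peroxisome genes also moved with replicate 2. Of 30 histone modification and heterochromatin genes tested, 5 were higher and 7 lower in 6 libraries, and 3 and 13 without replicate 2 (medians -0.30 and -0.92, and 0.18 over 6 libraries with the length trend removed). The DNA methyltransferase gene dim-2 fell in all treated libraries, from 229, 189 and 191 to 70.8, 27.8 and 68.9 normalized counts (log2 fold change -1.87, SE 0.31), and the acetyltransferase gene hat-5 from 689.7, 696 and 671 to 247, 243 and 231 (-1.51, SE 0.17). nst-1, a sirtuin gene, had 61.7 and 88.4 normalized counts in treated replicates 1 and 3, 1196 in replicate 2 and 327 to 359 without H2O2. Of 20 peroxisome biogenesis genes 2 were higher and 4 lower, and 0 and 7 without replicate 2, against 17.4% and 15.2% of all genes over 6 libraries. The share of lower calls among all genes likewise went from 15.2% to 23.3% without replicate 2. pex6, for an ATPase of receptor recycling, was lower in all treated libraries, at 78.7, 163 and 65.0 normalized counts against 408 to 448 (log2 fold change -2.04, SE 0.30).

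Alternative oxidase and alternative NADH dehydrogenase genes, which serve a respiratory route that bypasses proton-pumping complexes, gave 3 higher and 1 lower of 8 genes (median 0.58, and -0.10 on library totals), and 1 and 1 without replicate 2. All genes tested gave 17.4% higher and 15.2% lower, and 18.4% and 23.3% without replicate 2. aod-1, the alternative oxidase gene, had 1181, 1228 and 1218 normalized counts without H2O2 and 2443, 2303 and 2638 with it (log2 fold change 1.03, SE 0.27). For aod-3 the values were 38.2 to 41.4 without H2O2, 82.7 and 94.9 in treated replicates 1 and 3 and 313 in replicate 2.

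Of 17 cell wall protein genes 8 were higher and 2 were lower (median log2 fold change 0.80), and 7 and 2 without replicate 2, with 5 higher without either other treated library. On library totals 4 were higher and 4 lower (median 0.15), and 2 and 4 without replicate 2 (median -0.04). ncw-4 had 1653, 1685 and 1663 normalized counts without H2O2 and 22939, 14159 and 26406 with it (log2 fold change 3.67, SE 0.46, adjusted p = 8.4e-05 from edgeR), and ncw-3 had 2359.8, 2557 and 2286 and 16555, 10713 and 19340.2. In both genes all treated libraries lay more than 4-fold above all untreated ones. ncw-1 fell from 9118, 8698 and 8399 to 3028, 1670.5 and 2737 normalized counts (log2 fold change -1.82), with an overlapping gene. Of the 21 conidiation and aerial hypha markers tested, 5 were higher (23.8%, against 17.4% of all genes) and 1 was lower (median 0.43, and -0.15 on library totals), and 4 and 2 without replicate 2 (median 0.12). con-6 rose from 33.4, 23.6 and 27.8 to 129.9, 143 and 173 normalized counts (log2 fold change 2.39), and overlaps NCU08768. cmt, for copper metallothionein, rose from 3344, 3675 and 3731 to 16858, 9959 and 18763 normalized counts (log2 fold change 2.08, SE 0.23), and overlaps NCU05560.

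The genes of both other NMD factors were lower. Of 4 genes in a list for cross-pathway control, which regulates amino acid synthesis, 1 was lower and 0 were higher, and 2 and 0 without replicate 2. All genes tested gave 15.2% lower and 17.4% higher, and 23.3% and 18.4% without replicate 2. The gene of that list called lower in 6 libraries was the acetyltransferase gene ngf-1, and cpc-1 and cpc-2 were not called in either fit. upf-2 had 681, 568 and 574 normalized counts without H2O2 and 235, 250.0 and 242 with it (log2 fold change -1.33, SE 0.15, adjusted p = 4.35e-05 from edgeR), a call that was lost with the length trend removed. upf-3 had 375, 412 and 380.1 and 76.1, 275 and 71.5, with replicate 2 between the groups (-1.45, SE 0.42, and -2.40 without replicate 2). Reads on the deleted upf-1 locus were higher with H2O2 (1.30, SE 0.23), which says nothing of UPF-1 protein. cpc-1, for the bZIP factor of cross-pathway control, had 22859, 21796 and 21265 normalized counts without H2O2 and 14695, 10519.9 and 14044 with it (log2 fold change -0.75, SE 0.17, adjusted p = 0.00406), below the 2-fold threshold but with no overlap of the groups. ngf-1, for the GCN5 acetyltransferase, had 310.1, 270.0 and 261 and 49.9, 120.0 and 26.0 (log2 fold change -2.08, SE 0.41, and -2.88 without replicate 2), and overlaps 2 annotated genes.

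Catalases carry heme, and the 7 heme synthesis genes gave 1 higher and 1 lower call, and 2 and 1 without replicate 2 (median log2 fold change 0.55, and -0.22 on library totals). Over all genes tested 17.4% were higher and 15.2% lower, and 18.4% and 23.3% without replicate 2. NCU02395, for uroporphyrinogen-III synthase, rose from 148, 143 and 154 to 422, 227 and 498 normalized counts (log2 fold change 1.36, SE 0.29). NCU10292, for porphobilinogen deaminase, fell from 350.4, 410.3 and 384 to 168, 186 and 162 (-1.15, SE 0.22) and overlaps NCU08877. NCU01546, for coproporphyrinogen III oxidase, had the most reads of the list, 4761, 4829 and 4660.5 normalized counts without H2O2 and 9694, 6529 and 9628 with it (0.86, SE 0.22, and 1.02 without replicate 2, where it was called). NCU02771 and NCU01013 had log2 fold changes of 0.55 and 0.82. The gene of the first enzyme, 5-aminolevulinate synthase (NCU06189), had 2096 normalized counts in replicate 2, 854 and 695 in the other treated libraries and 1078 to 1247 without H2O2, so that its log2 fold change of 0.04 became -0.61 without replicate 2. Ferrochelatase (NCU08291) had a log2 fold change of 0.21 (SE 0.12), which was -0.50 on library totals.

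Which of these changes differed between the strains was tested as the difference between the log2 change in upf-1KO and that in the WT strain, in the same fit. The strains also differ in ku70, so that an effect of upf-1 loss and one of the ku70 background cannot be told apart here. Of 7878 genes, 304 had a larger log2 change in upf-1KO (3.86%) and 225 a smaller one (2.86%) at an adjusted p under 0.05. Without replicate 2 these were 749 (9.41% of 7961) and 579 (7.27%). The numbers moved with other libraries too: without any one of the 6 untreated libraries they were 92 to 113 and 76 to 93. Without WT replicate 1 with H2O2 they were 437 and 591, without WT replicate 2 or 3 with H2O2 110 to 111 and 240 to 257, and without treated upf-1KO replicate 1 or 3 204 to 230 and 364 to 399. The WT response had 1472 higher (18.7%) and 1822 lower genes (23.1%). It held 955 of the higher genes of upf-1KO (69.8% of the upf-1KO calls and 64.9% of the WT calls) and 873 of the lower genes (72.9% and 47.9%). Without replicate 2 of treated upf-1KO, it held 1057 of the higher genes (72.2% and 71.8%) and 1238 of the lower genes (66.8% and 67.9%). Of the 12 genes in the scavenging list, 0 had a larger and 2 had a smaller change in upf-1KO, and 1 (cys-9, 0.58) and 2 without replicate 2.

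The genes of the scavenging list with a smaller change were cat-3 and trx. cat-3 (chromosome III, 3561379 to 3564584) had 688, 823 and 679 normalized counts in the untreated WT libraries and 2339, 2478 and 2328 with H2O2, where upf-1KO had the 2931 to 3026 and 2339, 3033 and 1922 given above. The treated libraries of both strains thus lay within a common range, and the untreated ones did not. The log2 change was 1.71 (SE 0.17) in the WT strain and -0.29 in upf-1KO, and the difference was -1.99 (SE 0.24, adjusted p = 0.00103 from edgeR, and -2.18 without replicate 2). For trx the difference was -1.01 (adjusted p = 0.0459). The differences for cat-1 and cat-2 were -1.12 (SE 0.47, adjusted p = 0.172) and 0.04 (SE 0.98, adjusted p = 0.983). In WT replicate 1 with H2O2 both genes stood above the other treated WT libraries, with 4938, 1793 and 1709 normalized counts for cat-1 and 643, 169 and 168 for cat-2 in replicates 1 to 3.

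Among genes with a symbol, a mean of at least 100 normalized counts over the 12 libraries and a difference that passed with and without replicate 2, the largest in the positive direction were in eas, ada-6, ndi-1 and pks-3. con-6, with fewer reads, had a larger one (4.07, adjusted p = 0.00662 from edgeR). eas (chromosome II, 3570905 to 3572798), for the hydrophobin that coats conidia and aerial hyphae, had 60789, 60303 and 55996 normalized counts in untreated upf-1KO and 106233, 75653 and 115331 with H2O2. In the WT strain it went from 79509, 66286 and 81128 to 9628, 9779 and 9818. Its log2 change was -2.96 in the WT strain and 0.75 (SE 0.22, and -0.0038 on library totals) in upf-1KO, with a difference of 3.70 (SE 0.32, adjusted p = 9e-05). ada-6, a transcription factor gene, had 191, 165 and 181 and 91.8, 135 and 109 normalized counts in upf-1KO and 630.5, 683 and 622 and 40.9, 51.9 and 25.9 in the WT strain. Its level differed between the strains without H2O2 as well. ndi-1, for an alternative NADH dehydrogenase, had 67.4, 61.0 and 42.8 and 89.2, 190.5 and 70.2 in upf-1KO and 245, 236 and 286 and 62.2, 76.4 and 68.3 in the WT strain. pks-3, for a polyketide synthase, fell in both strains, from 186, 150.2 and 176 to 30.2, 58.5 and 32.5 in upf-1KO and from 783, 1029.5 and 766 to 21.3, 51.9 and 22.2 in the WT strain.

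In the negative direction the largest differences by the same rule were in the clock-controlled genes ccg-13 and ccg-14 and in fdh, for formate dehydrogenase, beside cat-3. ccg-13 had 1642, 1955 and 1938 normalized counts in untreated upf-1KO and 673, 1016 and 834 with H2O2, and 113, 66.1 and 81.2 and 391, 442 and 464 in the WT strain. It fell in upf-1KO and rose in the WT strain, from levels that were far apart without H2O2. fdh had 2825, 2557 and 2505 and 862, 908 and 672 normalized counts in upf-1KO and 144, 158 and 167 and 267, 180.1 and 168 in the WT strain. ccg-14 had 8982, 10333 and 10243 and 14736, 20031 and 16839 in upf-1KO and 5035, 1872 and 4765 and 42591, 30022 and 32320.1 in the WT strain, with a difference of -2.36 (SE 0.45, adjusted p = 0.0119 from edgeR). cpc-1 differed too, by -1.30 (SE 0.25, adjusted p = 0.0117), since its log2 change was 0.55 in the WT strain, and upf-2 by -0.97 (SE 0.21, adjusted p = 0.0206).

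**Figure D5:**
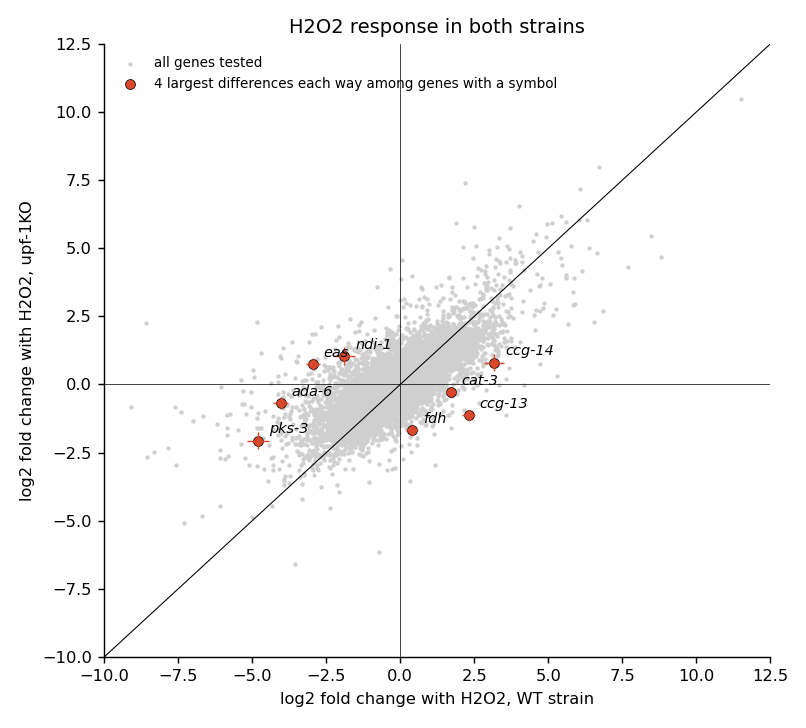
Log2 fold change with H2O2 in upf-1KO (y axis) against that in the WT strain (x axis) for all genes tested, with 4 genes in each direction in red, the largest differences among genes with a symbol and a mean of at least 100 normalized counts that passed with and without replicate 2, bars of 1 standard error and equal change on the diagonal line. eas, ndi-1, ada-6 and pks-3 lie above the line, and ccg-13, ccg-14, fdh and cat-3 lie below it.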

How the data were processed

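Per the labels and the study's methods, the authors aligned the reads to the N. crassa OR74A genome (NC12) with HISAT2 2.2.1 and counted them on genes with featureCounts (Subread 2.0.1). The strand setting of the counting is not given in the sources used here. The deposited table holds raw read counts, FPKM values that the authors computed from them, and the length of each of 10685 gene models in bases. FPKM was not tested. Symbols came from RefSeq (10588 genes matched).

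Counts of all 12 libraries were fitted in edgeR 4.0.16 (R 4.3.3) with TMM factors, filterByExpr and a mean for each of 4 groups, and tested by the quasi-likelihood method with Benjamini-Hochberg adjustment over all genes tested. Standard errors are the log2 fold change divided by the root of F. Normalized counts are counts rescaled with the TMM factors to the mean of the 12 libraries. The fit was repeated without treated replicate 2. Samples were grouped by their labels, the replicates being independent pools of mycelium.

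The libraries and the gene lists were chosen with earlier results of these data known. Named genes are the largest changes called in both fits among genes of at least 100 mean normalized counts without overlap of the groups (8 per direction, and 10 with a symbol), the 2 most abundant members and the largest called change per list, the 4 largest strain differences per direction, the genes the study names, and the 4 genes in which replicate 2 stood farthest on either side. Other list members are named as examples chosen after their values were seen. Some genes that the rule selects are not reported here. The fit was also run on simulated counts with known changes in a small part of the genes and no library apart from its group. That run does not show how the fit behaves with a library such as treated replicate 2. DESeq2 1.42.0, other scalings, filters and left-out libraries were alternatives. Depth was 5891672 to 7703271 reads per library.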

Additional observations from a re-analysis of the deposited data

Results flagged for a closer look

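Of the tests of a difference between the strains given for single genes, 12 passed with and without treated replicate 2, each value being the log2 change in upf-1KO minus that in the WT strain. Larger changes in upf-1KO were found for eas (3.70, adjusted p = 9e-05 from edgeR), ada-6 (3.37, adjusted p = 0.00025), ndi-1 (2.93, adjusted p = 0.00662) and pks-3 (2.75, adjusted p = 0.00781), which were chosen as the largest among abundant genes, and for con-6 (4.07, adjusted p = 0.00662). Smaller changes were found for ccg-13 (-3.44, adjusted p = 0.000103), ccg-14 (-2.36, adjusted p = 0.0119), fdh (-2.08, adjusted p = 0.00171) and cat-3 (-1.99, adjusted p = 0.00103), chosen by the same rule, and for cpc-1 (-1.30, adjusted p = 0.0117), trx (-1.01, adjusted p = 0.0459) and upf-2 (-0.97, adjusted p = 0.0206).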

How the results depend on the processing

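Library totals in place of TMM factors gave 428 higher and 2581 lower genes in upf-1KO, 428 and 3719 without replicate 2, and 1093 larger and 108 smaller changes than in the WT strain. Testing against a 2-fold change gave 537 and 434, 893 and 1157, and 25 and 16 genes in the same order. For the strain difference, 169 genes had larger changes with no filter on low counts and 201 with DESeq2 size factors, 799 larger and 466 smaller changes passed an unadjusted p under 0.05 with a 2-fold difference, and DESeq2 gave 531 smaller changes. Leaving out 1 library at a time gave 1042 to 1465 higher and 1098 to 1852 lower genes, and 92 to 749 larger and 76 to 591 smaller changes, the values without treated upf-1KO replicate 2 being 1465, 1852, 749 and 579. Robust estimation of the dispersions, an alternative added after seeing the data, gave 1367 higher and 1196 lower genes, 1460 and 1848 without replicate 2, and 306 larger and 222 smaller changes. Deviations from the group means of same-numbered upf-1KO libraries correlated at 0.014, -0.050 and -0.0072. Treated replicate 2 dominates the deviations of its group, so that these values cannot show whether the replicate numbers pair the samples. With the replicate block 176 larger and 152 smaller changes were called, and 1280 higher and 1238 lower genes.

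The direction turned for 20 named genes, and the cause was not tested. On library totals the log2 fold changes were -0.42 for mak-1, -0.72 for arg-1, -0.76 for vma-1, -0.19 for ylo-1, -0.74 for cys-3, -0.0038 for eas, -0.0069 for atp-2, -0.044 for tom22, -0.66 for chit-1, -0.61 for gh18-7, -0.66 for do, -0.59 for pyr-3 and -0.50 for NCU08291. With the length trend removed they were 0.037 for pma-1, 0.72 for qde-2 and 0.15 for nor-1. Over the left-out libraries the range was -0.61 to 0.16 for NCU06189, -0.39 to 4.63 for parp, -1.95 to 2.32 for gpr-5 and -1.57 to 1.55 for stk-27, the lowest value being that without treated replicate 2. With 3 libraries per group and 1 apart from its group, genes that change moderately or have few reads are the least certain.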
